A study of Homo sapiens with 8 samples.

Results

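The FOS and JUN family genes encode the subunits of AP-1, a transcription factor. ChIP-Seq peaks of DAXX, DNMT1 and histone H3(Lys4) were collected at 9 of these genes, FOS, FOSB, FOSL1, FOSL2, JUN, JUNB, JUND, ATF3 and BATF, of 19785 protein-coding genes in the GENCODE annotation. The genes were taken from a list of names, and a peak belonged to a gene when at least 1 bp of it lay inside the gene or within 50 kb of it. In the DAXX K/D cells this gave 44 of 42876 DAXX peaks, 6 of 595 DNMT1 peaks and 72 of 72181 H3(Lys4) regions. In the WT cells it gave 67 of 59761 DAXX peaks, 7 of 2234 DNMT1 peaks and 74 of 72064 H3(Lys4) regions. On GRCh37 (hg19), the FOS genes lie as FOS at chr14:75745529-75748933 (plus strand), FOSB at chr19:45971253-45978437 (plus strand), FOSL1 at chr11:65659520-65668044 (minus strand) and FOSL2 at chr2:28615315-28640184 (plus strand). The JUN genes lie as JUN at chr1:59242517-59249720 (minus strand), JUNB at chr19:12902300-12904129 (plus strand) and JUND at chr19:18390504-18392432 (minus strand). The related genes lie as ATF3 at chr1:212738676-212794119 (plus strand) and BATF at chr14:75988798-76013336 (plus strand).

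The cells were PC3, a line grown from the bone metastasis of a prostate cancer. The K/D cells carried a stable DAXX shRNA and grew in puromycin, and a knockdown lowers a transcript without deleting its gene. The labels call the other cells wild type while the series text speaks of a control shRNA line, and WT stands here for whichever was used. Both lines were cross-linked in 2 steps (DSG between proteins, then protein to DNA) and precipitated with goat antibodies to DAXX and DNMT1, and the histone libraries are labelled DMHH3(Lys4), a prefix that the labels do not spell out. Each of the 6 peak lists came from 1 library, the 2 inputs have no list used here, and no test between K/D and WT cells was possible. All K/D to WT comparisons below therefore set single libraries side by side. Peak lists hold no marker expression, so the identity of the cells is taken from the labels.

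AP-1 is a dimer of basic leucine zipper proteins. JUN proteins pair with each other or with FOS proteins, and the FOS proteins need a JUN partner to bind DNA. The dimers bind TGACTCA, here called the AP-1 motif. It reads TGAGTCA on the complementary strand. Dimers with ATF partners prefer the cAMP response element, which is TGACGTCA. The family is known for its rapid and short induction by growth factors and stress, and FOS and JUN are classic immediate early genes. DAXX is a histone chaperone and co-repressor without a DNA-binding domain of its own, and DNMT1 copies DNA methylation onto newly made DNA. Methylation of H3 at Lys4 marks promoters and enhancers.

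The libraries differed in strength. Of the tags in each library 6.83% (K/D) and 15.77% (WT) lay in DAXX peaks, 0.07% (K/D) and 0.26% (WT) in DNMT1 peaks, and 15.07% (K/D) and 23.94% (WT) in H3(Lys4) regions, out of 12050101 to 18705056 tags. A peak passed or failed fixed limits, so a WT peak without a K/D partner is one that was not called there and not one shown to be empty. How far the weaker K/D libraries account for the differences below was not tested.

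Sequence was read from the GRCh37 (hg19) genome around the peaks that carry the results. The first set holds windows of 100 bp to either side of the centre of a peak with an AP-1 motif. They are the earliest listed WT DAXX peaks with the motif at JUN, FOSL2, JUND and ATF3, all of which were called in both lines, and the earliest listed WT DNMT1 peak at FOSB. Only windows outside untranslated regions were taken, and FOSB had an earlier WT DAXX peak with the motif, at place 6484, that was not taken. Among the windows not printed, the WT DAXX peaks at FOSB (place 22132) and JUNB (place 54002) had no K/D partner. That at FOSL1 (place 7516) had one. Capitals mark TGACTCA or TGAGTCA.
JUN, WT DAXX peak at -39.6 kb (chr1:59289202-59289402, + strand): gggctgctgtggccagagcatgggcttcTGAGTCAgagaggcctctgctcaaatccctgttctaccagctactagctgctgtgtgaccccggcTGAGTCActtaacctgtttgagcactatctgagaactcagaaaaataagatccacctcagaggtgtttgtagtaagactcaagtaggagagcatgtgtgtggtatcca
FOSL2, WT DAXX peak at -22.3 kb (chr2:28593302-28593502, + strand): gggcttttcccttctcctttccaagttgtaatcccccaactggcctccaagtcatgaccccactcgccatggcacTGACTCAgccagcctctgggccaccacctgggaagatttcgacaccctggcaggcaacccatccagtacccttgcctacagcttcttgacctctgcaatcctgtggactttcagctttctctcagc
JUND, WT DAXX peak at -19.6 kb (chr19:18411934-18412134, + strand): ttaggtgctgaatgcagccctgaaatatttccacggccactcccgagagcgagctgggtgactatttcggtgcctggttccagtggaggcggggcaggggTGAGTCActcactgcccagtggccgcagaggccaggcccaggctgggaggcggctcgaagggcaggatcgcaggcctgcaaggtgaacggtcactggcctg
ATF3, WT DAXX peak at 52.4 kb (chr1:212840780-212840980, + strand): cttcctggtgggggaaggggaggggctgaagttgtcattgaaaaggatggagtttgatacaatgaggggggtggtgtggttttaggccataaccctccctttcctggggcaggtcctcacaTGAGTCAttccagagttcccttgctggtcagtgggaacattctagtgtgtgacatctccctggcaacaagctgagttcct
FOSB, WT DNMT1 peak at -12.1 kb (chr19:45959063-45959263, + strand): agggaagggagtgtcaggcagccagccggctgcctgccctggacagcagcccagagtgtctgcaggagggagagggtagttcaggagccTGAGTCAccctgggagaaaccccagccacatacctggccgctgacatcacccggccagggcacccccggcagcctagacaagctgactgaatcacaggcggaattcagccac
The second set holds the 3 WT DAXX peaks centred within 100 bp of a transcription start site (TSS) of the 9 genes, of 5 within 1 kb, and none of the 5 had a partner in the K/D list. The set was chosen after the values were seen. For JUNB and ATF3 only the bases before the transcript are given. Capitals mark TGACATCA (TGATGTCA on the other strand) or TTACGTCA, each 1 base away from TGACGTCA.
JUN, WT DAXX peak 94 bp upstream (chr1:59249727-59249899, + strand): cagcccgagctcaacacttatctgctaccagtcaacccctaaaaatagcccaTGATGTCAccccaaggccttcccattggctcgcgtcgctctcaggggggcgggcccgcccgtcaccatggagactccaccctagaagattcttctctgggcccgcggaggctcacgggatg
JUNB, WT DAXX peak 55 bp upstream (chr19:12902159-12902299, + strand): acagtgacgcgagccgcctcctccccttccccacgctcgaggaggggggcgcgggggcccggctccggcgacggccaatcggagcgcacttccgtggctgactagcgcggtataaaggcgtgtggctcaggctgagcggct
ATF3, WT DAXX peak 85 bp upstream (chr1:212781932-212782102, + strand): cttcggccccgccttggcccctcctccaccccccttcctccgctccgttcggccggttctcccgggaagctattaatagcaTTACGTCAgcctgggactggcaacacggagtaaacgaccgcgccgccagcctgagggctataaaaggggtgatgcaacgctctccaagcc
Distances run from the centre of a peak to the nearest TSS of the gene, and are negative upstream. JUN lies on the minus strand, so its promoter window reads here against the direction of transcription. Its motif is TGACATCA in the direction of the gene. Within 100 bp of the centre, TGACATCA was found in 1.46% of all WT DAXX peaks and TTACGTCA in 0.159%, and neither match shows which factor binds.

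DAXX was called around all 9 genes in both lines, and less often in K/D than in WT cells at each gene. FOS had 1 peak in K/D cells and 2 in WT cells, and it was the gene with fewest. FOSB had 6 peaks (K/D) and 10 (WT), FOSL1 had 7 (K/D) and 11 (WT), and FOSL2 had 9 (K/D) and 12 (WT). JUN had 6 peaks (K/D) and 7 (WT), JUNB had 6 (K/D) and 8 (WT), and JUND had 2 (K/D) and 4 (WT). ATF3 had 4 peaks in K/D cells and 9 in WT cells, and BATF had 3 in K/D cells and 4 in WT cells. The ratio of K/D to WT peaks over the 9 genes was 0.657. The whole K/D list was also the shorter, with 42876 DAXX peaks beside 59761 in WT cells. The median was 6 peaks a gene in K/D cells and 8 in WT cells, beside medians of 2 (K/D) and 4 (WT) over all protein-coding genes. Per 100 kb of window the medians of the 9 genes were 5.6 (K/D) and 6.53 (WT), and those of all genes 1.72 (K/D) and 2.53 (WT). FOSL2 stood highest, with as many WT DAXX peaks or more at 1361 of the 19785 genes, itself included. FOS was low on the same count, with as many or more at 14740 genes.

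**Figure D1:**
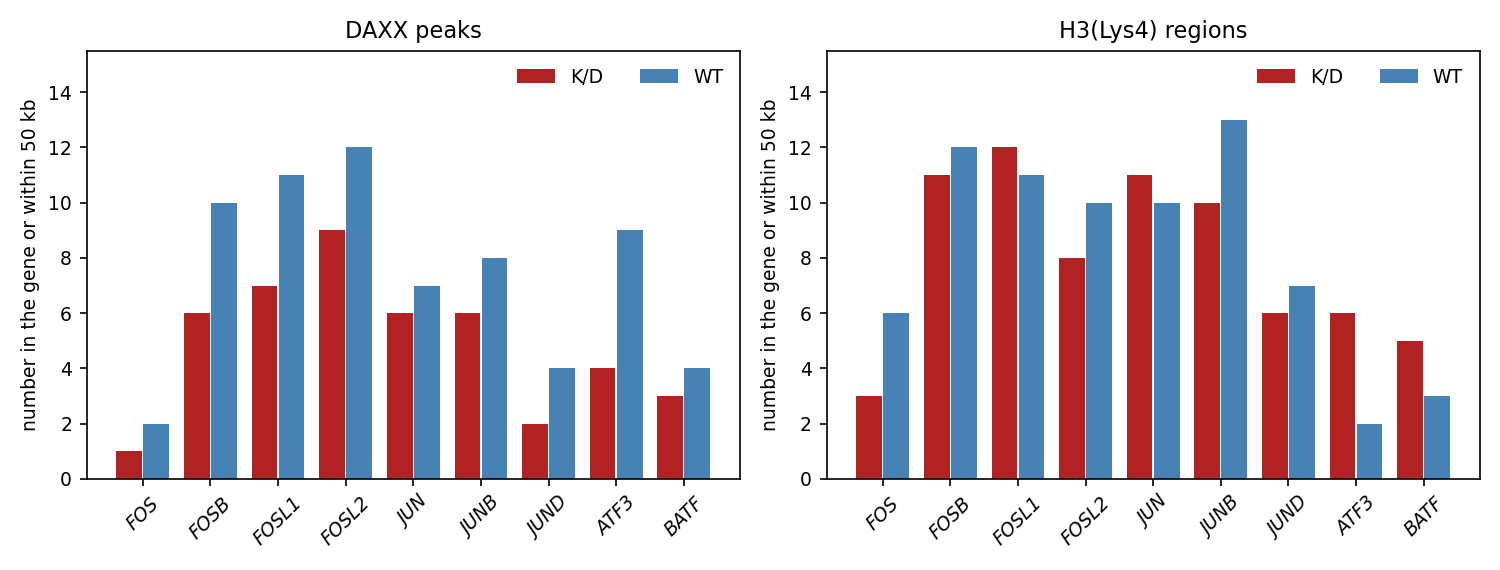
Number of DAXX peaks (left) and H3(Lys4) regions (right) in each gene or within 50 kb of it, with K/D cells in red and WT cells in blue, 1 library each and so no error bars. DAXX peaks are fewer in K/D than in WT at all 9 genes, while H3(Lys4) regions are more at FOSL1, JUN, ATF3 and BATF and fewer at the other 5. The whole K/D DAXX list is also shorter than the WT list.

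The windows are crowded, and about as many peaks lay nearest to another gene as to the listed one. The nearest protein-coding TSS belonged to the listed gene for 24 of 44 K/D and 36 of 67 WT DAXX peaks. FOS and JUN have no other protein-coding gene in their windows, whereas FOSL1 has 10, JUNB 8, JUND 5 and FOSB 4. In the annotation ERCC1 spans FOSB and HOOK2 spans JUNB, so introns named below are often those of a neighbour. Of the DAXX peaks, 21 (K/D) and 33 (WT) were intergenic, 19 (K/D) and 20 (WT) intronic, 4 (K/D) and 11 (WT) in promoters, and 0 (K/D) and 3 (WT) in exons. These places were not counted over the whole lists.

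**Figure D2:**
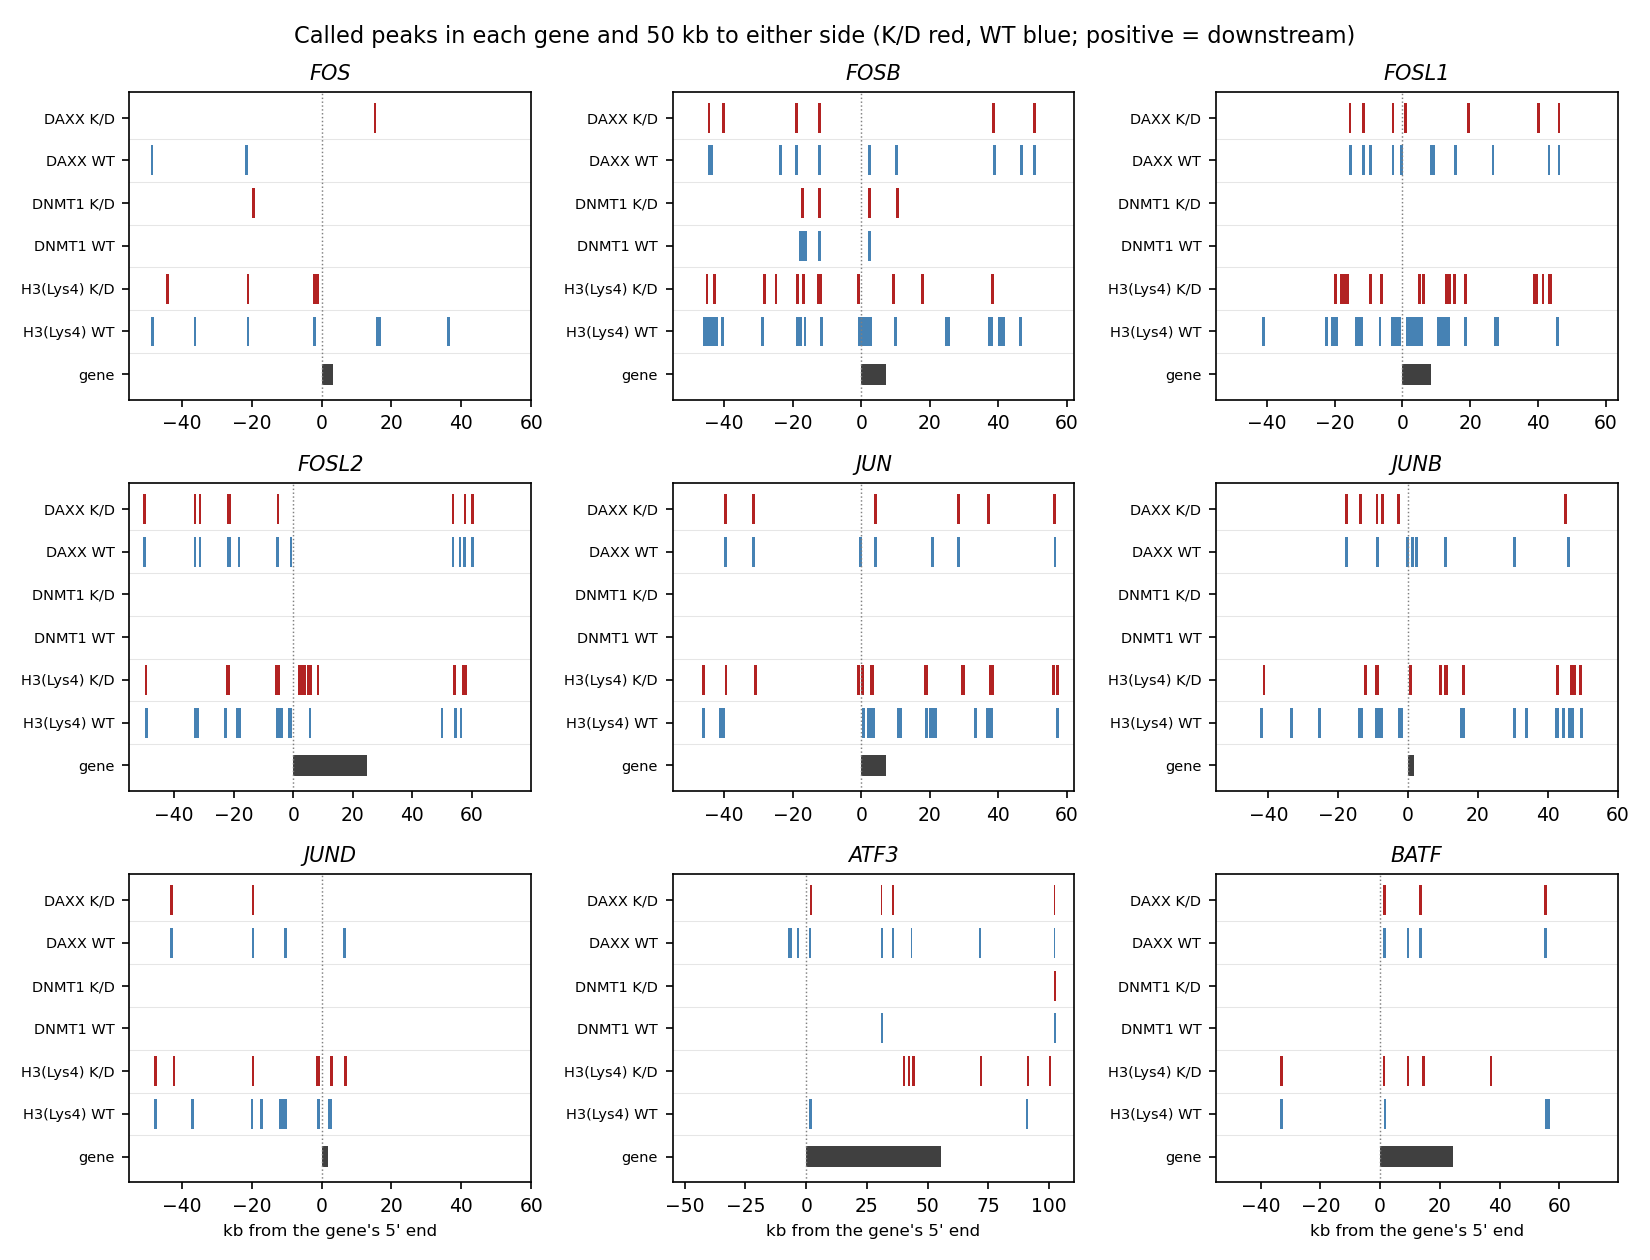
Map of each gene with 50 kb to either side, in kb from the 5' end of the gene and with positive values downstream. Bars are called DAXX peaks, DNMT1 peaks and H3(Lys4) regions in K/D (red) and WT (blue) cells, drawn at least 0.8 kb wide to be visible, and the dark bar is the gene. WT DAXX bars without a red bar above them stand at the 5' ends of JUN, JUNB, FOSL2 and, with a K/D bar close by inside the gene, FOSL1.

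The nearest DAXX peak lay farther from a start in K/D than in WT cells at 7 of the 9 genes and closer at FOS and BATF. A DAXX peak with its centre within 10 kb of a TSS was found at 6 of the 9 genes in K/D cells (41.8% of all protein-coding genes) and at 8 in WT cells (51.2% of all). Within 1 kb, K/D cells had a peak at 1 gene, FOSL1 (19.2% of all), and WT cells at 5, FOSB, FOSL1, JUN, JUNB and ATF3 (25.7% of all). The median distance to the nearest DAXX peak was 4093 bp in K/D cells and 474 bp in WT cells for the 9 genes, and the medians of all genes also differed in this direction, 15474 bp (K/D) and 9219 bp (WT).

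None of the 5 WT DAXX peaks within 1 kb of a TSS was called in K/D cells. At JUN, the founding member of the JUN proteins, the WT peak lay 94 bp upstream of the TSS at place 12901 of 59778 in the deposited order, and the nearest K/D peak was 4187 bp away. At JUNB, which encodes a JUN protein with weaker activation than JUN, the WT peak lay 55 bp upstream at place 20602, and the nearest K/D peak was 2685 bp away. At ATF3, a stress-induced member that represses as a homodimer, the WT peak lay 85 bp upstream of a TSS inside the gene at place 11537, and the nearest K/D peak was 7516 bp away. At FOSL1, which encodes FRA-1, the WT peak lay 372 bp upstream at place 17849, and a K/D peak was called 1255 bp away inside the gene, at 0.852 kb. At FOSB the WT peak lay in an exon, 474 bp past the start of a short transcript and 2392 bp past the 5' end of the gene, at place 35112, and the nearest K/D peak was 14457 bp away. FOSL2, which encodes FRA-2, had a WT peak just outside this limit, 1058 bp upstream at place 31310, which was not called in K/D cells either.

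Set beside all DAXX peaks at starts, 0 of 5 is an interval of 0 to 52.2% (exact binomial, counting error only), and 42.8% of all WT DAXX peaks within 1 kb of a protein-coding TSS overlapped a K/D peak. At the rate of TSS peaks of like place, taken in steps of 10% of the WT list, 2.95 of the 5 would have overlapped one. At gene level, 53.2% of all protein-coding genes with a WT DAXX centre that close to a start also had a K/D centre there, beside 1 of the 5 genes here. Measured from the 5' end of the gene alone, 4 WT peaks and 0 K/D peaks lay within 1 kb, and 0 of those 4 were called in K/D cells. The 4 were at JUN, JUNB, FOSL1 and FOSL2, so this set includes the FOSL2 peak and leaves out those of FOSB and ATF3. The interval of the 5 peaks includes the 42.8% of all such peaks, while the rate at like place, 2.95 of 5, lies above it. Neither difference was tested.

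At FOS, JUND and BATF the picture differed. FOS, the founding FOS gene, had no DAXX peak within 10 kb in either line. Its nearest K/D peak lay at 14 kb, at place 20479 of 42894, and its nearest WT peaks at -21.4 kb (place 19857) and -48.5 kb (place 58586). None of these overlapped a peak of the other line, so FOS was the 1 gene of the 9 without a shared DAXX peak. JUND, which encodes the most steadily expressed JUN protein, had its nearest K/D peak at -19.6 kb and its nearest WT peak at 6.63 kb, and this WT peak lay in the promoter of the neighbour IQCN. BATF, a partner of JUN proteins in lymphocytes, had a peak 1388 bp (K/D) and 1404 bp (WT) past a TSS, in an intron, and it was shared. That BATF peak stood at place 41609 of 42894 in the K/D list and at place 28557 of 59778 in the WT list.

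Over all distances, 32 of the 67 WT DAXX peaks overlapped a K/D peak (47.8%, interval 35.4 to 60.3%), and so did 48.4% of all WT DAXX peaks. Of the 44 K/D peaks, 32 overlapped a WT peak (72.7%), beside 67.4% of all K/D peaks. Both shares were near those of the whole lists. The overlapping pairs had their centres 2 to 131 bp apart, with a median of 22 bp. Of the 35 WT peaks without a partner, 2 had a K/D centre within 500 bp and 4 within 1 kb, and the median distance to one was 5239 bp. The WT peaks with a partner came earlier in the list (median place at 26.7% of it) than those without (42.5%). Leaving out 1 gene at a time, the share with a partner was 41.8 to 50.8%.

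**Figure D3:**
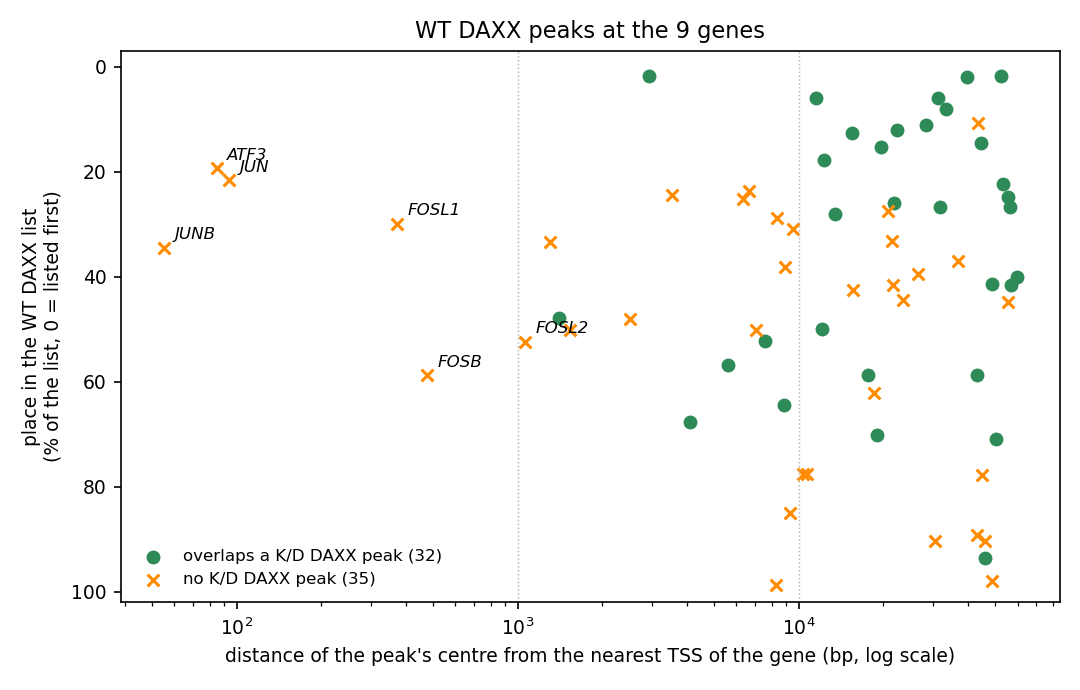
The 67 WT DAXX peaks at the 9 genes by distance from the nearest TSS of the gene (bp, log scale) and by place in the WT list (% of the list, with peaks listed first at the top). Circles overlap a K/D DAXX peak (32) and crosses do not (35), and all named peaks, those nearest to a TSS, are crosses including those of ATF3, JUN and FOSL1 at 19.3, 21.6 and 29.9% of the list.

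The share with a partner was higher away from the starts of the 9 genes. It was 6 of 19 at 1 to 10 kb (31.6%, interval 12.6 to 56.6%) and 26 of 43 beyond 10 kb (60.5%, interval 44.4 to 75%). The rate of all WT peaks of like place would give 23.9 of these 43 and 36.4 of all 67. Many of these peaks lie close to a neighbour, since 3 of the 19 were within 1 kb and 16 of the 43 within 10 kb of the start of another protein-coding gene.

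Distances to the nearest start of any protein-coding gene can be set beside the whole list. Within 1 kb of such a start, 2 of 14 WT DAXX peaks at the 9 genes had a K/D partner (14.3%, interval 1.78 to 42.8%), beside 42.8% of all WT DAXX peaks. The 14 were the 5 at the listed genes and 9 at neighbours, and the 2 with a partner lay at the neighbours ERCC1 and FLVCR2. At 1 to 10 kb it was 11 of 26 (42.3%, interval 23.4 to 63.1%), beside 47.9% of all. Beyond 10 kb it was 19 of 27 (70.4%, interval 49.8 to 86.2%), beside 49.1% of all. Peaks of 1 window are not independent, so these intervals are too narrow, and the differences were not tested.

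**Figure D4:**
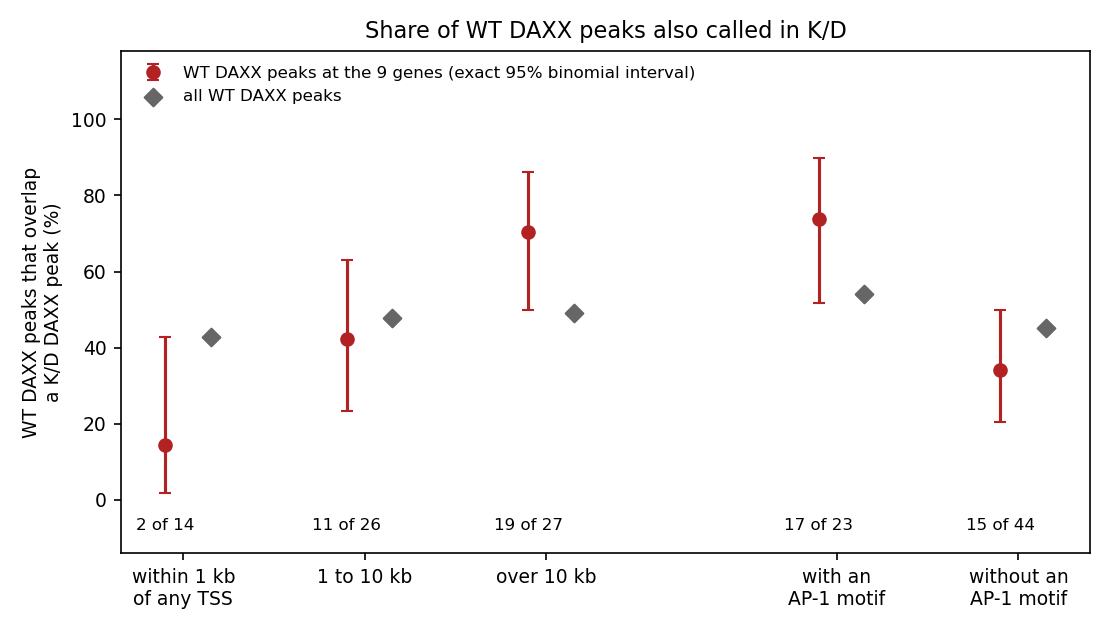
Share of WT DAXX peaks that overlap a K/D DAXX peak (%), by distance from the nearest TSS of any protein-coding gene and by the presence of an AP-1 motif within 100 bp of the centre. Red circles are the peaks at the 9 genes with exact 95% binomial intervals (counting error only), grey diamonds are all WT DAXX peaks, and the share at the genes goes up with distance (2 of 14, 11 of 26, 19 of 27) and is higher with the motif (17 of 23) than without it (15 of 44).

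FOSL2 had the most shared DAXX peaks. All 9 of its K/D peaks overlapped a WT peak, and so 9 of its 12 WT peaks had a partner. The earliest WT peaks stood at -33.3 kb (place 4798), -22.3 kb (place 7263) and 53.2 kb (place 13342), all shared. The K/D peak nearest to a TSS lay at -5.53 kb, and its WT partner at -5.58 kb. The peak at -33.3 kb held a cAMP response element in both lines. The 3 protein-coding genes with the most similar counts over the 6 lists were ANKH (distance 0.115 on log2 counts + 1), HBEGF (0.126) and C4orf19 (0.165). HBEGF, a growth factor of the EGF family, had 9 (K/D) and 12 (WT) DAXX peaks, the same as FOSL2.

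JUN had early listed shared peaks far from the gene and an unshared one at its start. Its first 3 WT DAXX peaks stood at -39.6 kb (place 1218 of 59778), -31.3 kb (place 3605) and 28.5 kb (place 6635). All 3 were shared, at places 984, 2007 and 5758 of 42894 in the K/D list. The promoter peak came next, at place 12901, and had no K/D partner. The K/D peak nearest to the TSS, at 4.09 kb in an intron of the GENCODE model, was shared with WT.

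ATF3 shared 3 of its 9 WT DAXX peaks with K/D cells. The first 3 WT peaks stood at 52.4 kb (place 1124), -12.3 kb (place 10651) and -0.085 kb (place 11537), of which the first 2 were shared. The 4 WT peaks around the 5' end of the long transcript, at -7.04, -6.35, -3.54 and 1.53 kb, were not. The K/D peak nearest to a TSS lay at 1.93 kb, 395 bp from the last of these, and it was called in K/D cells only.

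FOSL1 and FOSB, which encode FOS proteins, and JUNB each shared fewer than 1 in 2 of their WT DAXX peaks, with 4 of 11, 4 of 10 and 2 of 8. The first 3 WT peaks of FOSL1, at -2.94 kb (place 1083), -11.5 kb (place 3636) and -15.5 kb (place 7516), were all shared, and the other 8 included 1 shared peak. At FOSB the first 3, at -43.6, -44.4 and 37 kb, lay in the promoters of ERCC1 and VASP, and the second was shared. At JUNB the first 3, at 1.31 kb in the exon, at -0.055 kb and at 2.5 kb, all lay close to the gene and none was shared. The K/D peak nearest to the JUNB start lay at -2.74 kb and was not in the WT list. At JUND 2 of 4 WT peaks and at BATF 3 of 4 were shared.

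K/D cells had 12 DAXX peaks of their own, at 6 of the 9 genes. They stood at a median of 52.9% of the K/D list, beside 33% for the 32 shared ones, and 4 held an AP-1 motif.

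An AP-1 motif lay within 100 bp of the centre of 20 of 44 K/D DAXX peaks (45.5%, interval 30.4 to 61.2%) and of 23 of 67 WT DAXX peaks (34.3%, interval 23.2 to 46.9%). In the whole lists these shares were 35.4% (K/D) and 36.2% (WT), inside both intervals. In windows of the same length 2 kb to either side of the peaks at the 9 genes, the motif was found in 5 of 88 (K/D) and 4 of 134 (WT). No DAXX peak at FOS or BATF held it. The peak at JUN shown above held 2. A cAMP response element was found in 2 K/D and 2 WT DAXX peaks at these genes, and in 0.282% (K/D) and 0.278% (WT) of the whole lists.

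WT DAXX peaks with the motif were more often called in K/D cells than those without. Of the 23 with it 17 had a partner (73.9%, interval 51.6 to 89.8%), and of the 44 without it 15 (34.1%, interval 20.5 to 49.9%). Over all WT DAXX peaks these shares were 54% with the motif and 45.2% without. Peaks with the motif also came earlier in the list, at a median of 26.8% against 40.7%, and the rate of all WT peaks of like place would give 13.1 of the 23 and 23.3 of the 44. None of the 5 peaks at a TSS of the listed genes held the motif, and the parts of the motif and of the distance from a TSS were not told apart.

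In the RefSeq promoters (250 bases before to 50 after the start, GRCh38.p14) 8 of the 9 genes were matched. TGACTCA on either strand was found in the promoter of FOSL2 alone among them, and in 4.95% of all 35116 promoters. TGACGTCA was found at JUND alone and in 1.85% of all. TGACATCA was found at JUN and ATF3 and in 2.61% of all, and TTACGTCA at FOSB and in 0.416% of all. The TTACGTCA printed above for ATF3 lies at a start inside the gene, and no RefSeq promoter of ATF3 that was searched held it.

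H3(Lys4) regions were about as many in both lines but narrower in K/D cells. There were 72 (K/D) and 74 (WT), a ratio of 0.973, with median widths of 750 bp (K/D) and 869 bp (WT). They covered 63.2 kb in K/D cells and 92.9 kb in WT cells, a ratio of 0.681, beside 0.825 for all regions. The covered length was smaller in K/D cells at 8 genes and larger at 1, ATF3. FOSB had the lowest ratio, 7.4 kb (K/D) to 18.9 kb (WT), and ATF3 the highest, 4.13 kb (K/D) to 1.36 kb (WT). Of the K/D regions 41 of 72 overlapped a WT region (56.9%, interval 44.7 to 68.6%), beside 48.2% of all. Of the WT regions 39 of 74 overlapped a K/D region (52.7%, interval 40.7 to 64.4%), beside 45.8% of all.

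A TSS lay inside an H3(Lys4) region at 0 of the 9 genes in K/D cells (19.0% of all protein-coding genes) and at 1 in WT cells, FOSB (29.2% of all). For each gene without a covered start, the nearest edge was taken at whichever of its starts lay closest to a region. In K/D cells that edge was 131 bp (ATF3) to 4705 bp (FOSL1) away. In WT cells it was 371 bp (JUN) to 1790 bp (FOS) away at the other 8 genes. Other starts of a gene can lie farther off. At ATF3 the centre of the WT DAXX peak 85 bp upstream of the inner start lay 41157 bp from a WT region. That of the K/D DAXX peak 1.93 kb past the start of the long transcript lay 37814 bp from a K/D region. Every gene had a region within 10 kb of a TSS in both lines.

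At FOSB, K/D cells had a region of 501 bp upstream of the gene at place 45540 of 72215, while WT cells had 1 of 4123 bp over all 5 of its starts at place 1332 of 72100. These regions of FOSB overlapped each other. At FOSL1 the K/D region nearest to a TSS was 4705 bp away, while WT cells had regions of 3132 bp and 4929 bp on either side of the start, at places 1632 and 930. FOSL2 had a K/D region of 2638 bp centred at 2.4 kb (place 2166) and a WT region of 1488 bp centred at -1.35 kb (place 7130), so the nearest region lay downstream of the start in K/D and upstream in WT. At JUNB the nearest region also changed sides, with 1 of 955 bp at 0.768 kb in K/D cells and 1 of 1293 bp at -2.1 kb in WT cells.

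At ATF3, K/D cells had a region of 1219 bp at 0.74 kb, just past the start whose DAXX peak was not called in these cells, at place 2325. The nearest WT region lay at another start, that of the long transcript (855 bp at 1.76 kb, place 6931), and no K/D region overlapped it. JUN, FOS, JUND and BATF kept their nearest region, and each of these, like that of FOSB, overlapped one of the other line. JUN had a region of 501 bp past the start in both lines, centred at 0.483 kb (K/D) and 0.621 kb (WT), and 1 more region at -0.801 kb in K/D cells only. FOS had a region of 1704 bp at -1.46 kb (K/D, place 3723) and of 501 bp at -2.04 kb (WT, place 41640).

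DAXX peaks mostly lay outside the H3(Lys4) regions. In K/D cells 11 of 44 overlapped a region (25%, interval 13.2 to 40.3%), beside 28.7% of all, and in WT cells 24 of 67 (35.8%, interval 24.5 to 48.5%), beside 37.4% of all. A region lay within 1 kb of 25 of 44 K/D peaks and 39 of 67 WT peaks, counts that were not made over the whole lists. WT DAXX peaks on a region had a K/D partner in 10 of 24 cases (41.7%), beside 45.8% of all, and those off a region in 22 of 43 (51.2%), beside 49.9% of all. Both shares were near those of the whole list.

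DNMT1 peaks were found at FOS, FOSB and ATF3 in K/D cells (3 of 9 genes, 4.08% of all) and at FOSB and ATF3 in WT cells (2 of 9 genes, 11.4% of all). There were 6 (K/D) and 7 (WT), although the whole K/D list was much shorter. Of the K/D peaks 4 of 6 overlapped a WT peak, beside 32.3% of all, and of the WT peaks 4 of 7 overlapped a K/D peak, beside 8.59% of all. With so few peaks, and several side by side at FOSB, these shares are values only.

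FOSB held most of them, with 4 in K/D cells and 5 in WT cells. Counting FOSB itself, as many or more were found at 10 genes in K/D cells and 23 in WT cells. Genes with overlapping windows share peaks in these counts. In K/D cells they stood at -17.1 kb (place 60 of 600), -12.1 kb (place 86), 0.478 kb (place 247) and 8.69 kb (place 248). In WT cells they stood at -12.1 kb (place 80 of 2237), -17.1 kb (place 95), 0.503 kb (place 264), -16.3 kb (place 385) and -17.6 kb (place 549). The peaks at -12.1 kb, at -17.1 kb and in the exon were in both lists. The one at -12.1 kb, shown above with its AP-1 motif, also overlapped a DAXX peak in both lines. In the exon DNMT1 was called in both lines, whereas DAXX was called there in WT cells only. The WT H3(Lys4) region reached over the exon peak. The K/D region that overlapped this WT region ended 2998 bp from the centre of the K/D DNMT1 peak.

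At ATF3 the DNMT1 peak at 52.4 kb (place 43 in K/D, and 52.5 kb, place 53, in WT) held the AP-1 motif shown above and overlapped a DAXX peak in both lines. It lay 32220 bp (K/D) and 32188 bp (WT) from the start of BATF3, which encodes another basic leucine zipper protein and is the nearest protein-coding gene. A second ATF3 peak, at -12.4 kb (place 978), was called in WT cells only and overlapped a DAXX peak there. At FOS the K/D cells had a DNMT1 peak at -19.6 kb that stood at place 3 of 600 and overlapped no DAXX peak, no H3(Lys4) region and no WT DNMT1 peak.

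Other genes of the pathway were counted over 3 lists, to be read beside the 41.8% (K/D) and 51.2% (WT) of all protein-coding genes with a DAXX centre that near to a start. Of 10 partners and related basic leucine zipper genes, 4 in K/D and 7 in WT cells had a DAXX centre at most 10 kb from a TSS, and the 4 were among the 7. The K/D count is at the share of all genes. The earliest peaks were those of ATF2 (-7.87 kb, place 9432, shared), a JUN partner, and MAFG (6.8 kb, place 11477, not shared), a small MAF protein. Of 10 kinases and factors upstream of FOS and JUN, 6 in K/D and 9 in WT cells had such a peak, first RPS6KA3 (-3.11 kb, place 10371) and MAPK8 (1.69 kb, place 15765), which encodes the kinase JNK1. Of 12 known AP-1 targets, 12 in K/D and 11 in WT cells had one, and 11 were the same genes. The WT peak of PLAU, the urokinase gene, stood at place 13 of 59778 (-4.31 kb), and that of MMP13, a collagenase gene, at place 2205 (4.63 kb), both shared. The targets had such a peak at least as often in K/D as in WT cells, while the 9 family genes and the other lists had it less often in K/D cells, and these differences were not tested.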

How the data were processed

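By the submitters' processing notes and the study's methods, the authors used CASAVA 1.8.2 for base calls, Bowtie2 2.1.0 for alignment to hg19 with unique locations kept, and HOMER 4.6 for peaks. Per the file headers, each list was called against its input with limits of 4.00-fold over input and over the surrounding 10 kb and a Poisson p-value of 0.0001 over input, with an FDR of 0.001 for DAXX and DNMT1. The deposited values used are the start and end positions of peaks, on no intensity scale. The deposited score column holds 1 constant value, so strength was read from the order of the list, which is less certain for H3(Lys4) and K/D DNMT1. In the DAXX lists too, some neighbouring peaks hold consecutive places, such as 28420, 28421 and 28422 at FOSB in K/D cells. The order may therefore not rank such peaks by strength, which limits the comparisons by place.

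Peaks on other contigs (113) were left out. Transcript starts came from GENCODE release 44 on GRCh37 (basic protein-coding transcripts), the build of hg19. Peaks counted as shared, or as lying on a region, with at least 1 bp in common. Promoters ran from 1000 bp before to 100 bp after a start. A motif counted on either strand, up to 100 bp from a peak's centre. Intervals are exact binomial at 95% and cover counting error only. With 1 library per group no test was made and no paired fit exists. Peaks of like place are those in the same 10% of the WT DAXX list. The interval and overlap code was tested on simulated data. Python 3.11.15, numpy 2.4.6, pandas 2.3.3, scipy 1.17.1 and pysam 0.24.0 were used.

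The 9 genes and the gene lists were chosen with earlier results of these data known. The text names, at each gene, the DAXX peak nearest to a TSS in each line, the first 3 WT DAXX peaks, DNMT1 peaks, the nearest H3(Lys4) region and peaks within 1 kb of a TSS, and from each pathway list up to 2 genes whose peak comes first. Sequences followed the earliest AP-1 peak outside untranslated regions at each gene. Windows nearest to another gene are not printed, apart from the ATF3 window, which also holds a DNMT1 peak. Other peaks, the TGACATCA and TTACGTCA motifs, the distances to starts of any gene and the steps of 10% were chosen after the values were seen.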

Additional observations from a re-analysis of the deposited data

How the results depend on the processing

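Of 39 alternative values for the 9 results, 28 stayed within the binomial interval of the main value or, for counts of genes, within 1.5 times it. With windows of 10 kb the ratio of K/D to WT peaks was 0.429 for DAXX and 1.43 for H3(Lys4), which turns the direction of the H3(Lys4) ratio, and 28.6% of WT DAXX peaks and 66.7% of WT H3(Lys4) regions had a K/D partner, while 17.9% of WT DAXX peaks held an AP-1 motif. With centres within 100 bp as the rule, 9.46% of WT H3(Lys4) regions had a K/D partner and 1.49% of WT DAXX peaks counted as on H3(Lys4) in WT cells. With at least 50% of each peak in common these shares were 31.1% and 0%, and a DAXX peak is too narrow to fill 50% of most regions. In the first 50% of each list, 20.5% of WT DAXX peaks overlapped H3(Lys4) in WT cells, and in K/D cells 2 of 9 genes had DAXX within 10 kb of a start. The cause was not tested. No paired analysis was possible because each group has 1 library. Strength within a peak was not used, peaks just under the calling limit are not seen, and a difference in enrichment between the K/D and WT libraries cannot be told apart from the knockdown.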
